A study of Mus musculus with 6 samples.

Results

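The SWI/SNF and Polycomb genes of adult mouse pancreatic acinar cells were followed from control to Trip12 knockout preparations. Members were chosen by name. They were the protein-coding genes whose symbols begin with Smarca, Smarcb, Smarcc, Smarcd or Arid1 to Arid5, the chromobox genes Cbx2, Cbx3 and Cbx5 to Cbx8, the Pcgf, Phc and Ezh genes, and Pbrm1, Brd7, Brd9, Dpf2, Eed, Suz12, Ring1, Rnf2 and Jarid2. This gave 47 genes of the 55414 gene identifiers in the count tables. The control group (Pdx1Cre;Trip12+/+) and the knockout group (Pdx1Cre;Trip12fl/fl) had 3 libraries each, all from untreated adult pancreatic acinar cells. Both groups carry Cre recombinase under the Pdx1 promoter, which is active in the early pancreatic bud, so that recombination is not limited to the acinar lineage. The labels call the samples biological replicates and number them 1 to 3 in each group, without saying that each came from a separate animal or what a number stands for, so the p-values measure the spread between these samples. TRIP12, the product of the targeted gene, is a ubiquitin ligase with many nuclear substrates.

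SWI/SNF complexes use the energy of ATP to move or evict nucleosomes and so open chromatin. They contain 1 of the alternative ATPases BRG1 (gene Smarca4) or BRM (gene Smarca2), and they come in 3 forms, canonical BAF with ARID1A or ARID1B, PBAF with ARID2 and PBRM1, and non-canonical BAF with BRD9. Polycomb complexes act in the opposite sense. PRC2, with the methyltransferase EZH1 or EZH2, places a methyl mark on histone H3, and PRC1, with the ligases RING1 or RNF2, ubiquitylates histone H2A and can read the PRC2 mark through its CBX subunits. In the pancreas both systems are known for their part in keeping the acinar cell's identity.

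The name rule also takes in genes outside these complexes. Smarca1, Smarca5, Smarcad1 and Smarcal1 encode SWI/SNF-related ATPases of other complexes or of DNA repair, Arid3, Arid4 and Arid5 genes encode other DNA-binding proteins, and Cbx3 and Cbx5 encode heterochromatin proteins of the HP1 family. By role, the 47 members were 15 SWI/SNF subunits, 4 related ATPases, 7 other ARID genes, 14 PRC1 genes, 5 PRC2 genes and 2 HP1 genes. All but Arid3c passed the filter on low counts, so 46 were tested. Arid3c had 0 counts in all 6 libraries, which allows up to 3 counts or 0.123 CPM (counts scaled to a fixed library size, here with TMM normalisation factors) in the shallowest library.

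Each library held between 31019500 and 34041901 reads counted in genes. Trip12 itself was at 29.0, 22.3 and 26.4 normalised CPM in controls 1 to 3 and 14.4, 14.7 and 13.0 in knockouts 1 to 3, without overlap (log2 fold change -0.89, SE 0.14, adjusted p 0.0256, edgeR), where the gene count includes any exons outside the deleted stretch. The 9 acinar markers summed to between 349655 and 466878 CPM in control and between 313937 and 326220 in knockout. Acinar markers were thus abundant in every library, with lower sums in knockout and no overlap under TMM scaling. Their unscaled counts did overlap. These were 11100794, 11365517 and 12303953 in controls 1 to 3 and 12042773, 10997230 and 12162699 in knockouts 1 to 3. The separation of the sums therefore depends on the scaling. edgeR called none of the 9 without the block and, with it, Rbpjl higher and Ptf1a lower. Before adjustment 1 was higher and 3 lower at p under 0.05, beside 8.45% and 8.27% of all tested genes. The part of this in the results below was not tested. The libraries were not matched for sex, since control replicates 2 and 3 carried the female transcript Xist (2118 and 2440 counts) and the other 4 libraries carried Y-linked transcripts (1205 to 1784 counts). Sex and genotype therefore cannot be fully told apart. In bulk preparations like these, fewer cells of a type and less RNA per cell cannot be told apart.

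In knockout Smarca1 was 5.46-fold and Cbx6 1.84-fold higher than in control, while the other 44 tested members had no call in the unblocked fit and log2 fold changes between -0.47 and 1.10. Calls were made with the quasi-likelihood test of edgeR at a p under 0.05 after Benjamini-Hochberg adjustment across the 13115 genes tested. It called 2 members higher in knockout, Smarca1 and Cbx6. That is 4.35% of the 46 tested, beside 0.465% of all tested genes called higher. No member was called lower by edgeR, with or without the replicate number as a block, or by DESeq2, beside 0.480% of all genes in edgeR, 2.58% in edgeR with the block and 2.55% in DESeq2, and before adjustment, at p under 0.05, 5 members were higher (10.9%, beside 8.45% of all genes) and 3 lower (6.52%, beside 8.27%). The median log2 fold change was 0.06 over the members and 0.02 over all tested genes, and 25 members lay above 0 and 21 below.

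Taking the replicate number as a block in the same edgeR fit raised the count to 4 members, Smarca1, Cbx6, Brd9 and Ring1, all higher, which is 8.70% of the 46 beside 3.40% of all genes called higher in that fit. DESeq2 called the same 4, beside 1.97% of all genes called higher. Groups did not overlap for 6 members with knockout higher (13.0% of the tested members, beside 12.0% of all genes) and for 5 with knockout lower (10.9%, beside 10.9%). Those shares of members are near the background. Library totals in place of TMM factors raised the median of all tested genes from 0.02 to 0.43 and that of the members to 0.46, so directions below are relative to the bulk of genes, and under that scaling 45 of the 46 tested members lay above 0.

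**Figure D1:**
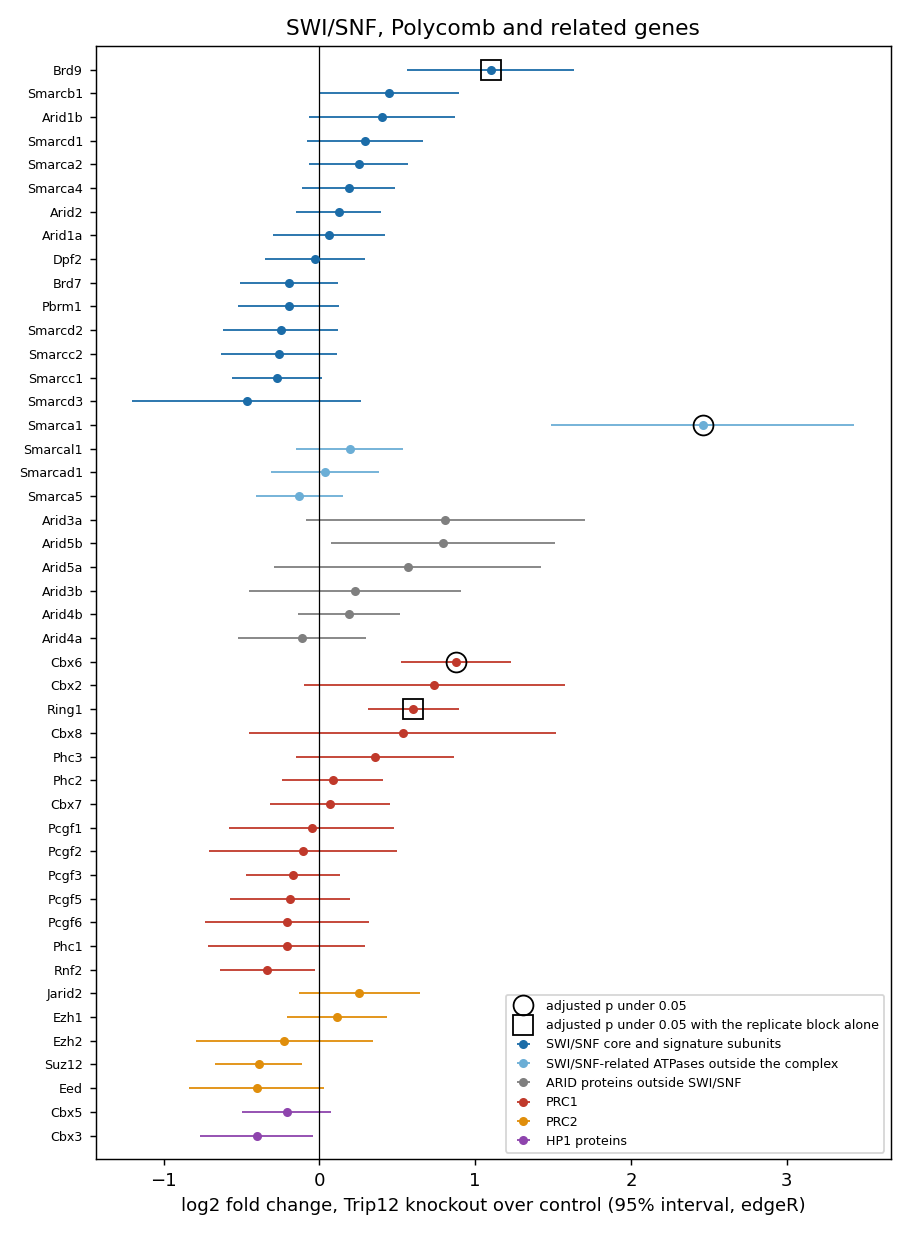
Log2 fold change of knockout over control (x axis) for each of the 46 tested members (y axis), grouped by role and coloured as in the key, with 95% intervals from edgeR. Circles mark Smarca1 and Cbx6, with an adjusted p under 0.05, and squares mark Brd9 and Ring1, called by edgeR with the replicate block and not in the unblocked fit plotted.

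The sequence before the transcription start is shown for the called members whose window overlaps no annotated exon. They differ in CpG content, which is of interest since mammalian Polycomb complexes are often found at CpG-rich promoters. Both are RefSeq sequences of mouse build GRCm38.p6, the 250 bases before the start, 5′ to 3′ on the gene's strand, with each CG in capitals. Smarca1 lies on the minus strand at chrX:47892614-47892863 and Ring1 on the minus strand at chr17:34024681-34024930. The counts were made on build GRCm39, and these positions were not used with them.
Smarca1: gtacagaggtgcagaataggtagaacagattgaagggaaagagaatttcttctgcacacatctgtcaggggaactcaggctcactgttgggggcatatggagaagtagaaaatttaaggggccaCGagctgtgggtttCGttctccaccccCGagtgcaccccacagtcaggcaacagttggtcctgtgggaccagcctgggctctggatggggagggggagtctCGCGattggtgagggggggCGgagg
Ring1: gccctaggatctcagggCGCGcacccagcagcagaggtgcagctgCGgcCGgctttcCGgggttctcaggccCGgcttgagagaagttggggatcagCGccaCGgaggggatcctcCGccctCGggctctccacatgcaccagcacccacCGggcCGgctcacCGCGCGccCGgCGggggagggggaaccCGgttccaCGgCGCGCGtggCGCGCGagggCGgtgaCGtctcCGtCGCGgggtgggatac
The Smarca1 window held 6 CG dinucleotides and the Ring1 window 30. Of the other called members, Cbx6 had 20 and Brd9 33. Those 2 windows overlap annotated exons. Over the 42 members with an entry the median was 22.5 (range 4 to 40), beside a median of 6 over 27025 genes, and 28 of the 42 (66.7%) had at least 20, beside 19.7% of all genes. Those 27025 genes were not limited to the 13115 tested here, whereas 46 of the 47 members were tested. The 2 sets are therefore not alike, and the source of the contrast was not tested. Only 3 members had fewer than Smarca1, whose count equalled the median of all genes. Only the dinucleotide CG was searched, which reads the same on both strands and occurs at least once in 92.1% of all windows.

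Smarca1 changed most. It encodes SNF2L, the ATPase of ISWI remodelling complexes that space nucleosomes, a relative of SWI/SNF and not a subunit of it. By replicate number, the controls had 11, 30 and 33 counts of it and the knockouts 169, 167 and 219. Normalised levels were 0.346, 1.23 and 1.20 CPM in control and 4.53, 4.77 and 5.87 in knockout. Every knockout library lay above every control, and the lowest control was replicate 1. Mean levels of 0.926 ± 0.502 CPM (SD, n = 3) and 5.06 ± 0.717 CPM gave a log2 fold change of 2.46 (SE 0.43, 95% interval 1.49 to 3.43, adjusted p 0.0432 in edgeR, 0.00154 with the block).

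The fold within numbered pairs was 13.1, 3.87 and 4.90. Smarca1 is X-linked (ENSMUSG00000031099), and both sexes were present among the controls only. With sex as a covariate, a fit that rests on the 1 male control, edgeR gave a log2 fold change of 3.85 (adjusted p 0.0145). Leaving out single libraries ended the call in 5 of 6 edgeR fits, with log2 fold changes from 2.03 to 2.72 and adjusted p from 0.00717 to 0.172, and the call held only without control replicate 1. That fit set only female controls against male knockouts, so sex and genotype cannot be told apart in it. Control replicate 1, with the lowest Smarca1, had the highest summed leukocyte (80.3 CPM) and the highest control stromal markers (84.7 CPM), against 15.4 to 21.8 and 19.8 to 28.7 CPM in the other controls. In knockouts 1 to 3 the leukocyte sums were 55.1, 13.4 and 52.6 CPM and the stromal sums 95.6, 22.2 and 82.9 CPM. The part of these cells in the Smarca1 difference was not tested.

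Its closest relative, Smarca5, encodes SNF2H, the other ISWI ATPase. Smarca5 was at 19.7, 17.1 and 18.0 CPM in control and 15.6, 16.7 and 17.8 in knockout, overlapping groups with a log2 fold change of -0.13 (95% interval -0.41 to 0.15). Per kilobase of exon, Smarca1 went from 0.151 to 0.827 CPM per kilobase while Smarca5 stood at 2.35 and 2.15, so Smarca1 remained the lower of the pair. The DNA repair ATPase genes Smarcad1 and Smarcal1 had log2 fold changes of 0.04 and 0.20 and were not called, although the groups did not overlap for Smarcal1.

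**Figure D2:**
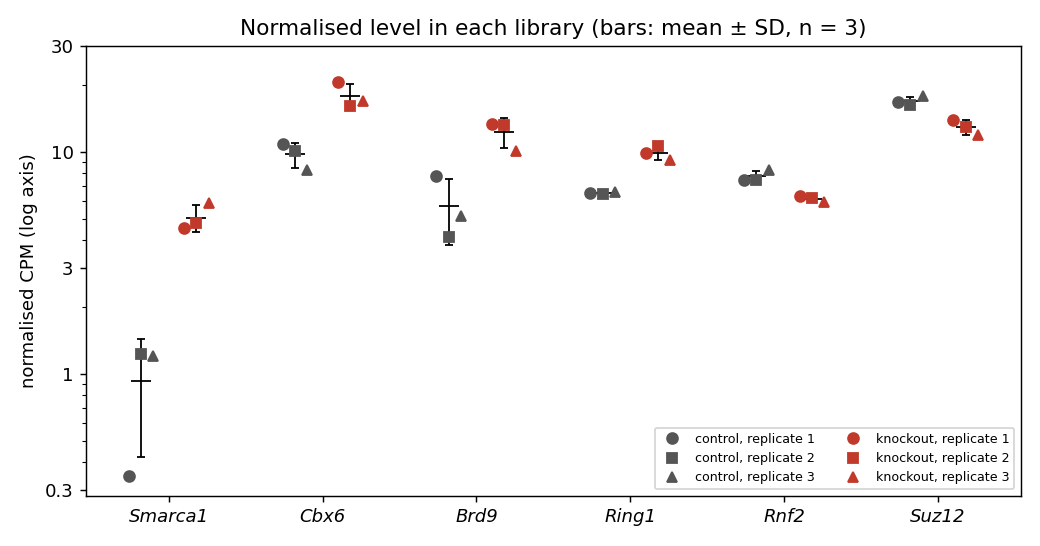
Normalised CPM (y axis, log scale) of the 4 members called with the replicate block and of Rnf2 and Suz12 (x axis), 1 point per library with shapes for the replicate number, horizontal bars for the mean and whiskers for the SD (n = 3). Knockout points lie above all control points for the first 4 genes and below them for Rnf2 and Suz12.

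Of the 14 PRC1 genes edgeR called 1 higher, Cbx6 (7.14%, beside 0.465% of all genes), or 2 higher with the block (14.3%, beside 3.40%). None was called lower, and the median log2 fold change was 0.0096. Before adjustment, 2 were higher (14.3%, beside 8.45% of all genes) and 1 lower (7.14%, beside 8.27%) at p under 0.05. Cbx6, which encodes a reader subunit of canonical PRC1, was at 10.8, 10.1 and 8.32 CPM in controls 1 to 3 and at 20.6, 16.1 and 16.9 in knockout. The groups were well apart. Cbx6 rose, with means of 9.73 ± 1.27 CPM (SD, n = 3) and 17.9 ± 2.41 CPM and a log2 fold change of 0.88 (SE 0.15, 95% interval 0.53 to 1.23, adjusted p 0.0414 in edgeR). Leaving out single libraries ended the call in 5 of 6 edgeR fits (log2 fold change 0.76 to 0.94, adjusted p 0.0298 to 0.176), holding only without control replicate 1, and with the sex covariate the log2 fold change was 0.73 with an adjusted p of 0.306. The fit without control replicate 1 set only female controls against male knockouts, and so cannot separate sex from genotype. With the block the adjusted p was 0.00460 in edgeR, or 0.0612 without replicate pair 2. In the GRCm38 annotation Cbx6 (ENSMUSG00000089715) overlaps Npcd on the same strand. Reads on exons of both genes would be left out of the count if the counting annotation held both, and included otherwise.

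The other chromobox genes of PRC1 described here, which also encode readers of the PRC2 mark, were not called. Cbx2 averaged 0.981 CPM in control and 1.64 in knockout (log2 fold change 0.74, 95% interval -0.10 to 1.57), and Cbx8 0.662 and 0.961 (0.53, 95% interval -0.45 to 1.52). Cbx7, the most abundant of them, averaged 13.4 CPM in control and 14.0 in knockout, with overlap and a log2 fold change of 0.07 (95% interval -0.32 to 0.45). Cbx2, Cbx6, Cbx7 and Cbx8 thus all had fold changes above 0, with 1 call.

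The ligase genes had fold changes of opposite sign. Ring1 was at 6.55, 6.45 and 6.58 CPM in control and at 9.89, 10.6 and 9.20 in knockout. Its control SD was the smallest of the 4 called members, and no knockout library came near them. Means were 6.53 ± 0.0686 CPM (SD, n = 3) and 9.91 ± 0.724 CPM, with a log2 fold change of 0.60 (SE 0.13, 95% interval 0.31 to 0.90), with an adjusted p of 0.0698 in edgeR and 0.0368 with the block. The blocked call was lost without replicate pair 1 (adjusted p 0.104 in edgeR) or pair 2 (0.304). Rnf2, which encodes RING1B, the paralogous ligase, was at 7.50, 7.48 and 8.29 CPM in control and at 6.35, 6.17 and 5.93 in knockout. Here every knockout library was below every control. Its log2 fold change was -0.33 (95% interval -0.64 to -0.03), with an adjusted p of 0.260 in edgeR and 0.228 with the block, so no change was called, and under library totals the value was 0.081.

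The remaining PRC1 genes showed no call in edgeR, with or without the block, or in DESeq2. The Pcgf genes encode the subunits that define the PRC1 variants, and the 5 measured here (Pcgf1, Pcgf2, Pcgf3, Pcgf5 and Pcgf6) had log2 fold changes between -0.21 and -0.05, without overlap only for Pcgf5. The Phc genes encode subunits that join PRC1 complexes into larger assemblies. Phc2 was at 10.6, 10.4 and 10.9 CPM in control and 13.2, 9.99 and 10.6 in knockout, and Phc3 at 19.7, 10.5 and 14.0 against 16.6, 18.7 and 21.4, both with overlap. Phc1 averaged 3.40 CPM in control and 2.94 in knockout.

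The 5 PRC2 genes had a median log2 fold change of -0.22. None was called in edgeR, with or without the block, or in DESeq2. Before adjustment 1 of the 5, Suz12, was lower at p under 0.05 in edgeR and 0 were higher. Over all tested genes the shares at that threshold were 8.27% lower and 8.45% higher. Suz12, a core scaffold of PRC2, was at 16.8, 16.2 and 17.8 CPM in control and at 14.0, 13.0 and 11.9 in knockout. The knockout libraries all lay lower. Its log2 fold change was -0.39 (SE 0.12, 95% interval -0.67 to -0.11), with an adjusted p of 0.169 in edgeR and 0.119 with the block. Eed, which encodes the subunit that binds the methyl mark, was at 5.51, 6.94 and 7.42 CPM in control and 4.56, 6.05 and 4.40 in knockout, where knockout replicate 2 overlapped the controls (log2 fold change -0.40, 95% interval -0.83 to 0.03). With library totals the log2 fold changes were 0.024 and 0.022, beside 0.43 for the median of all genes.

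Of the catalytic genes of PRC2, Ezh1 was called in edgeR with library totals alone (log2 fold change 0.54, adjusted p 0.0469, beside 0.43 for the median of all genes), and Ezh2 in no fit. Ezh1, the form typical of non-dividing cells, was at 9.92, 10.7 and 13.2 CPM in control and 11.9, 12.0 and 12.6 in knockout (log2 fold change 0.11, 95% interval -0.21 to 0.43). Ezh2, the form typical of dividing cells, was at 4.63, 2.55 and 3.71 CPM in control and 2.79, 3.17 and 3.38 in knockout (log2 fold change -0.22, 95% interval -0.79 to 0.34). Both overlapped. Ezh1 was the higher of the pair in both groups, at 1.51 and 1.64 CPM per kilobase of exon against 0.543 and 0.466 for Ezh2. The 8 proliferation markers summed to 15.2 to 27.7 CPM in control and 14.6 to 20.5 in knockout. Of the 7 tested, edgeR called none without the block and, with it, 1 lower, Mcm2, beside 2.58% of all genes. DESeq2 called none of them. Jarid2, a cofactor that helps target PRC2, had a log2 fold change of 0.25 (95% interval -0.13 to 0.64).

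Of the 15 SWI/SNF subunits edgeR called none without the block, and their median log2 fold change was 0.06. Before adjustment 1, Brd9, was higher at p under 0.05 (6.67%, beside 8.45% of all genes). Brd9 was the only subunit called with the block (6.67%, beside 3.40% of all genes called higher) or in DESeq2 (6.67%, beside 1.97%). It encodes the bromodomain subunit that marks non-canonical BAF. Brd9 was at 7.78, 4.15 and 5.16 CPM in controls 1 to 3 and at 13.4, 13.3 and 10.1 in knockout. The highest control, replicate 1, was still below the lowest knockout. Means were 5.70 ± 1.87 CPM (SD, n = 3) and 12.3 ± 1.88 CPM, with a log2 fold change of 1.10 (SE 0.24, 95% interval 0.56 to 1.64), with an adjusted p of 0.0719 in edgeR and 0.00577 with the block. Within numbered pairs the folds were 1.72, 3.20 and 1.95, and the unblocked adjusted p in edgeR was 0.0122 without control replicate 1 and 0.155 to 0.264 without each of the other 5 libraries. Without control replicate 1, only female controls were set against male knockouts. The blocked call was lost without replicate pair 2 (adjusted p 0.114 in edgeR). Brd9 (ENSMUSG00000057649) overlaps an antisense gene model in the GRCm38 annotation, and the counts do not separate strands. With the sex covariate the log2 fold change was 0.65 (adjusted p 0.389 in edgeR), and that of Ring1 was 0.60, with an adjusted p of 0.338.

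The other subunits were not called. Smarca4 was at 18.0, 16.7 and 15.5 CPM in control and 20.8, 17.0 and 19.3 in knockout, and Smarca2 at 17.5, 13.6 and 14.6 against 17.7, 17.0 and 19.8. Their log2 fold changes were 0.19 (95% interval -0.11 to 0.49) and 0.25 (95% interval -0.07 to 0.57). Both ATPase genes overlapped between groups. Smarcb1, which encodes the subunit that grips the nucleosome, averaged 7.52 CPM in control and 10.3 in knockout (log2 fold change 0.45, adjusted p 0.298 in edgeR).

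The most abundant member, Smarcc2, encodes a core scaffold (BAF170). It was at 67.4, 78.7 and 85.6 CPM in control and 56.5, 75.0 and 62.0 in knockout, and its paralog Smarcc1 (BAF155) was at 12.8, 13.2 and 11.2 against 9.68, 10.2 and 10.9. Smarcc1 did not overlap between groups and Smarcc2 did, and neither was called. Per kilobase of exon Smarcc2 led all 47 members in control (13.9 CPM per kilobase), followed by Smarcd2 (7.11), Suz12 (3.43), Arid1a (2.67) and Smarca4 (2.58). Smarcd2 was at 21.1, 28.5 and 26.97 CPM in control and 23.3, 23.0 and 18.1 in knockout, with overlap.

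The low Smarcd3, whose product is the form of this subunit used in muscle and nerve, was at 1.98, 2.01 and 1.53 CPM in control and 1.07, 1.71 and 1.21 in knockout, with overlap and a log2 fold change of -0.47 (95% interval -1.20 to 0.27), the lowest of the 46 tested members. Smarcd1 was at 3.62, 3.70 and 3.42 CPM in control and 4.26, 4.34 and 4.53 in knockout, without overlap but with an adjusted p of 0.422 in edgeR. Among subunits that mark canonical BAF, Arid1a was at 37.6, 26.9 and 27.5 CPM in control and 31.2, 33.8 and 31.0 in knockout. Arid1b was at 16.0, 9.94 and 10.1 against 16.3, 13.6 and 17.9, and Dpf2 had a log2 fold change of -0.03. The PBAF subunits Arid2, Pbrm1 and Brd7 had log2 fold changes of 0.12, -0.20 and -0.19. None of these was called, and Arid1a and Arid1b overlapped between groups.

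Ratios of paralogous subunits within a library do not depend on how libraries are scaled, and 7 pairs were each tested by exact permutation, two-sided, where 3 libraries against 3 allow no p below 0.1. The log2 ratio of Ring1 to Rnf2 counts was -0.19, -0.21 and -0.33 in controls 1 to 3 and 0.64, 0.79 and 0.63 in knockout. All 3 knockout ratios lay above all 3 control ratios. The difference was 0.93, a 1.91-fold higher ratio in knockout (exact p = 0.1, 0.35 adjusted over the 7 pairs). Per kilobase of exon the mean log2 ratio was 0.10 in control, near parity, and 1.03 in knockout. Of the 7 pairs, this one had the largest difference.

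Another pair did not overlap between groups. The log2 ratio of Smarcd1 to Smarcd2 was -2.54, -2.94 and -2.97 in controls 1 to 3 and -2.45, -2.40 and -1.99 in knockout. The means were -2.82 ± 0.244 (SD, n = 3) and -2.28 ± 0.251 (exact permutation p = 0.1, 0.35 adjusted). The ATPase ratio of Smarca2 to Smarca4 differed by 0.072 between groups, Smarcc1 to Smarcc2 by -0.0096, Ezh1 to Ezh2 by 0.31, Arid1a to Arid1b by -0.35 and Phc2 to Phc3 by -0.32, all with overlapping groups and exact permutation p from 0.2 to 1.0. Leaving out 1 library moved the Ezh1 to Ezh2 difference to 0.026 (without control replicate 1) or 0.51 (without control replicate 2), and that of Phc2 to Phc3 to between -0.56 (without control replicate 1) and -0.12 (without control replicate 2).

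**Figure D3:**
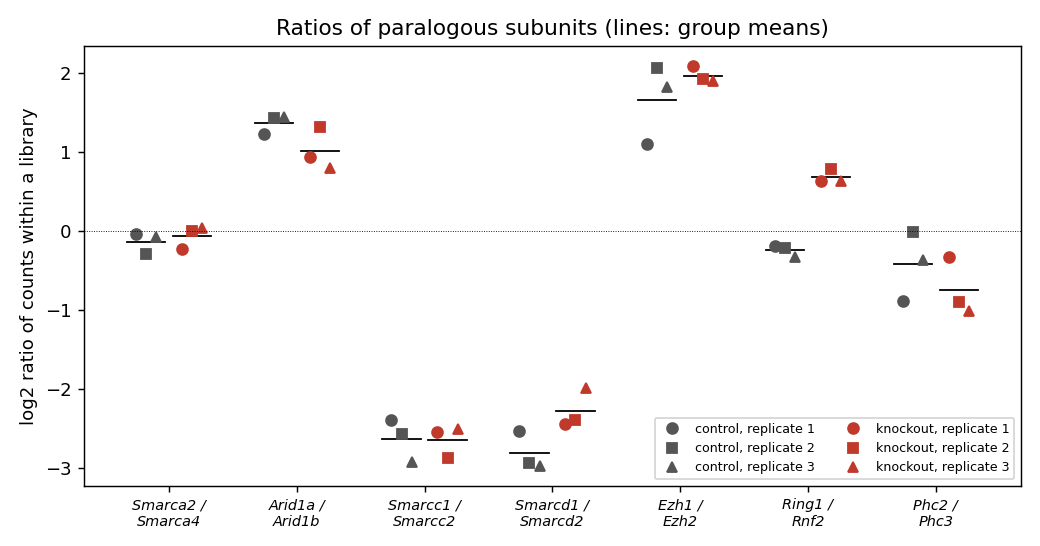
Log2 ratio of the counts of 2 paralogous subunits within each library (y axis) for 7 pairs (x axis), 1 point per library with shapes for the replicate number and lines for the group means. The Ring1 to Rnf2 ratio lies between -0.33 and -0.19 in control and between 0.63 and 0.79 in knockout.

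Of the members outside both systems edgeR called Smarca1 alone in the unblocked and blocked fits of all 6 libraries with a filter on low counts. Arid5b, which encodes a DNA-binding partner of a histone demethylase, was at 6.58, 3.04 and 3.56 CPM in control and 7.56, 5.97 and 9.47 in knockout, with overlap (log2 fold change 0.80, adjusted p 0.260 in edgeR and 0.0542 with the block). Arid5b was called in edgeR without control replicate 1 (adjusted p 0.0360), with the block without pair 1 (0.0291) and with no filter (0.00485), and with the sex covariate its log2 fold change was 0.22. The fits without control replicate 1 or pair 1 set only female controls against male knockouts. Arid3a, a transcription factor gene, was at 1.26, 0.616 and 0.800 CPM in control and 1.77, 1.23 and 1.72 in knockout, overlapping by 1 knockout library (log2 fold change 0.81, 95% interval -0.09 to 1.71). Arid3b, Arid4a, Arid4b and Arid5a had log2 fold changes between -0.11 and 0.57. Of the HP1 genes, Cbx3 was at 8.10, 7.44 and 10.2 CPM in control and 6.54, 6.02 and 6.87 in knockout, without overlap (log2 fold change -0.40, adjusted p 0.257 in edgeR), and Cbx5 had a log2 fold change of -0.21. With library totals the value of Cbx3 was 0.013.

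Other genes of the same machinery were read from fixed lists. Of 12 further SWI/SNF subunits 10 were tested, with a median log2 fold change of 0.05, and of 23 Polycomb partners 20 were tested, with a median of 0.10. The 6 H3K27 demethylase and MLL methyltransferase genes, which oppose Polycomb, had a median of 0.42, with 5 above 0. None of these 3 lists held a call in edgeR, with or without the block, or in DESeq2. At an unadjusted p under 0.05 in edgeR the SWI/SNF list held 0 genes. The Polycomb list held 3 higher and 1 lower of 20 tested, and the demethylase and methyltransferase list 4 higher and 0 lower of 6. Of 19 other remodelling ATPases, edgeR called none without the block, with 6 higher and 0 lower at p under 0.05 before adjustment. Over all tested genes the shares at that threshold were 8.45% higher and 8.27% lower. Given the block edgeR called Chd6 and Chd2, both higher, beside 3.40% of all genes called higher in that fit. Chd6 was at 18.3, 11.7 and 15.0 CPM in control and 26.1, 28.1 and 27.1 in knockout (log2 fold change 0.85, adjusted p 0.0587 in edgeR and 0.0100 with the block), and Chd2 had a log2 fold change of 0.56 (adjusted p 0.292 and 0.0471 in the same fits). DESeq2 called only Chd6.

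Hox genes, the classic targets of Polycomb silencing, had few counts in both groups. None of the 39 passed the filter, 17 had no count in any library, and their summed counts were 91, 24 and 25 in controls 1 to 3 and 149, 40 and 54 in knockout. The sums overlapped, with replicate 1 highest in each group.

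Markers of other cell types were read in the same libraries, and all but Adipoq had counts. Summed ductal markers were 96.9 to 112 CPM in control and 112 to 202 CPM in knockout, islet markers 349 to 454 and 238 to 895, and leukocyte markers 15.4 to 80.3 and 13.4 to 55.1. Stromal markers summed to 19.8 to 84.7 CPM in control and 22.2 to 95.6 in knockout, endothelial markers to 18.7 to 82.6 and 30.4 to 103, and adipocyte markers to 3.41 to 8.85 and 4.57 to 17.2. All but the ductal sums overlapped between groups, and the ductal sums parted by under 1 CPM. Without the block edgeR called no gene of these 6 lists. Before adjustment 3 genes were higher and 2 lower at p under 0.05, beside 8.45% and 8.27% of all tested genes. Including the block edgeR called 4 higher (Krt7, Spp1, Adgre1 and Fabp4) and 1 lower (Krt19), beside 3.40% and 2.58% of all genes. DESeq2 called Spp1 and Chga higher and Krt19 lower. The part of these cell types in the results above was not tested.

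**Figure D4:**
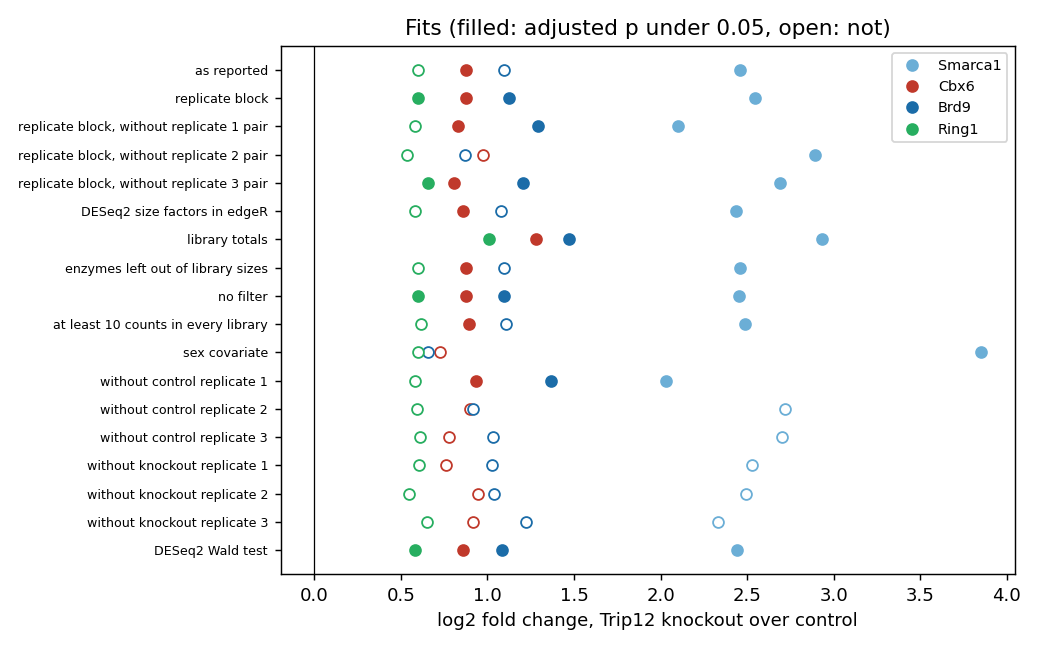
Log2 fold change of knockout over control (x axis) of Smarca1, Cbx6, Brd9 and Ring1 under the reported edgeR fit and 17 alternatives (y axis), with filled points for an adjusted p under 0.05. All 4 genes lie above 0 in all 18 fits, and none of the 4 has a filled point in 5 of the 6 fits that leave out 1 library.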

How the data were processed

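RNA from the acinar preparations was made into poly(A)-selected libraries, per the labels' protocols. STAR 2.7.10a and build GRCm39 (mm39) are named in the submitters' processing notes, and the annotation and counting settings are not given in the sources used here. The deposited values are whole-number counts of reads per gene, made by the authors. The unstranded column was used, since reads divided evenly between strands (50.1% to 50.3% forward). Reads not assigned to 1 gene (43.5% to 45.7% in control, 36.9% to 41.1% in knockout) were left out of library sizes.

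Of 55414 identifiers, 52133 (94.1%) matched GENCODE M21 (GRCm38), which gave symbols, exon lengths and overlaps. edgeR 4.0.16 in R 4.3.3 was run with TMM factors, filterByExpr and the quasi-likelihood test on all 6 libraries, with Benjamini-Hochberg adjustment over 13115 genes. CPM values are divided by TMM-scaled library sizes. DESeq2 1.42.0, a replicate block, other scalings and filters, a sex covariate and leaving out each library were alternatives. Paralog ratios used counts plus 0.5. The edgeR fits without and with the block were run on simulated counts with the same dispersion for every gene. Those counts held no replicate or sex effect, so they cannot show how the fits behave where such effects are present. The limit given by 3 counts covers counting error only.

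Deviations from group means correlated between same-numbered control and knockout libraries (0.630, 0.455 and 0.285 for replicates 1 to 3). For other pairs the correlations ranged from -0.50 to 0.21. Numbers were therefore taken to pair the samples, and blocked values stand beside results whose call they change. The labels state no pairing, and this one was read from the same expression values that were then fitted with the block. Control 3 correlated at 0.285 with knockout 3 and at 0.210 with knockout 2. Blocked calls and folds within numbered pairs thus rest on a pairing that was not established independently.

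Members and lists were chosen with earlier results of these data known. Library values are given for members called with or without the block, members of the 7 paralog pairs, and the 4 largest rises and 4 largest falls among tested members with a mean of at least 1 CPM in either group. Smarca5 and Arid5b were added after their values were seen. Other genes named come from the lists. Further genes of the 2 systems, 1 planned paralog pair, 1 planned leukocyte marker and the cell lines of the series are not reported here.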

Additional observations from a re-analysis of the deposited data

How the results depend on the processing

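The number of members called was 2 of 46 in edgeR without a block. It was 4 with the replicate block, 4 (Arid5b in place of Ring1), 1 (Smarca1) and 4 with the block but without replicate pair 1, 2 or 3, 4 in DESeq2, 5 with library totals (Ezh1 added), 5 with no filter (Arid5b added) and 1 with the sex covariate. Leaving out single libraries gave 0 to 4, with 4 without control replicate 1 and 0 without any of the others. Without control replicate 1 or replicate pair 1, all controls were female and all knockouts male, so those fits cannot separate sex from genotype. DESeq2 size factors in edgeR, enzymes left out of library sizes and at least 10 counts per library each gave 2. The median log2 fold change of the members, 0.06, became 0.46 with library totals, -0.0026 with the sex covariate and -0.012 with the block without pair 2. All calls in all 17 alternatives were of higher members. Over all genes, in both directions, edgeR called 124 of 13115 without a block and 785 with it. Without replicate pair 1, 2 or 3 the blocked calls were 396 of 12831, 100 of 13712 and 832 of 13626. DESeq2 made 594 calls, library totals 1519 of 13115, no filter 850 of 25772 and the sex covariate 21. Without control replicate 1 there were 461, and without each of the others 20 to 88. DESeq2 size factors gave 118, enzymes left out 121 and at least 10 counts 210 of 11110.

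Of 24 members given by library, 11 kept their direction in all 17 alternatives and 13 did not. With library totals the log2 fold change was 0.013 for Cbx3, 0.081 for Rnf2, 0.15 for Ezh2, 0.024 for Suz12, 0.022 for Eed, 0.18 for Smarcd2, 0.16 for Smarcc2, 0.14 for Smarcc1 and 0.27 for Smarca5. With the sex covariate it was -0.062 for Phc3, -0.010 for Arid1b, -0.23 for Arid1a and 0.026 for Smarcd2. With the block it was -0.066 for Phc2 and 0.062 for Ezh2 without pair 1, and -0.051 for Arid1a without pair 2. Over fits without 1 library it ran from -0.048 to 0.16 for Phc2 and from -0.026 to 0.21 for Arid1a. The cause was not tested.

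Over the same fits the difference of log2 ratios ran from -0.0043 to 0.16 for Smarca2 to Smarca4, from -0.16 to 0.11 for Smarcc1 to Smarcc2, from 0.026 to 0.51 for Ezh1 to Ezh2, from -0.50 to -0.24 for Arid1a to Arid1b, from -0.56 to -0.12 for Phc2 to Phc3, from 0.39 to 0.68 for Smarcd1 to Smarcd2 and from 0.88 to 0.96 for Ring1 to Rnf2. With the replicate block the ratio of Ring1 to Rnf2 differed by 0.93, as without it, and 3 pairs allow no exact p under 0.25. With 11 to 33 control counts, depth limits Smarca1 most among the called members.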
